A study of Mus musculus with 40 samples.

Results

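A block of zinc finger protein genes lies near the far end of mouse chromosome 4, and 10 of them are described here: Zfp600, Zfp979, Zfp980, Zfp981, Zfp982, Zfp987, Zfp990, Zfp991, Zfp992 and Zfp993. They are 10 of the 55471 genes in the deposited count table. The list was chosen by the counts of Zfp992, which were lower after repeated cross fostering in C57 males in these same libraries, so that comparison is given as a description without a test. The first base of the first gene and the last base of the last are chromosome 4, 145510759 to 147642513, in build GRCm38, a span of 2.13 Mb. Another 63 annotated genes of the table lie inside it, of which 18 had no count in any library.

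Messenger RNA was sequenced from small punches of the adult mouse midbrain, taken at the ventral tegmental area, home to many dopamine neurons. The tested treatment was repeated cross fostering (RCF), in which litters got a different adoptive mother on each of postnatal days 1 to 4. The 8 groups of 5 libraries were DBA RCF males, DBA control males, DBA RCF females, DBA control females, C57 RCF males, C57 control males, C57 RCF females and C57 control females, where C57 is given as C57/Bl6 and controls are called unhandled. The labels name no animal, litter, substrain or batch for a library, so a p-value reflects spread among libraries that may in part be technical.

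Most genes of this block code for proteins with a KRAB domain followed by an array of C2H2 zinc fingers. The fingers read DNA sequence, and the KRAB domain recruits the co-repressor TRIM28, which brings the histone methyltransferase SETDB1 and leads to silent chromatin. Such proteins are known mainly for silencing retrotransposons, and their genes sit in tandem clusters that grew by duplication, so neighbours are often near copies of each other. In mouse embryonic stem cells Zfp982 has been described as a regulator of pluripotency genes. No role of the other members was sure enough to be given.

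The closeness of the copies matters for a count of 75 nt single reads. Zfp992 (ENSMUSG00000070605.4, chromosome 4, 146449023 to 146470292, plus strand) was aligned with its nearest copies from the GENCODE transcripts. It matched Zfp991 (ENSMUSG00000067916.9, 147132038 to 147180579, plus strand) at 99.3% of 2490 aligned bases, with 17 substitutions. It matched Zfp993 (ENSMUSG00000063245.11, 146610961 to 146658160, plus strand) at 99.4% of 1017 bases, with 6 substitutions. It matched Znf41-ps (ENSMUSG00000084350.1, 145825237 to 145829942, plus strand), an unprocessed pseudogene inside the block and not a member, at 99.3% of 2413 bases, with 16 substitutions. A stretch of coding sequence as long as a read shows how little separates them. It was chosen for the most differences from Zfp991, so it is not a typical stretch. The single differing base is in capitals, at position 38 from the 5′ end (T38A, the base of Zfp992 first).
Zfp992, chr4:146466421-146466495, plus strand: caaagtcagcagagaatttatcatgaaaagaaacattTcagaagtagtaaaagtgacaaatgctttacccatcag
Zfp991, chr4:147178765-147178839, plus strand: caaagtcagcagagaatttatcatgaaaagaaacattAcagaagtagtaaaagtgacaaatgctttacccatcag
Znf41-ps, chr4:145828127-145828201, plus strand: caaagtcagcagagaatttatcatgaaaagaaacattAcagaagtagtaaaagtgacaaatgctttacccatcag
In this stretch Zfp991 and Znf41-ps are identical, so a read from it could not be assigned to either of them. A read of this stretch from Zfp992 would be told apart by 1 base, whereas most coding windows of Zfp992 were also found in another gene.

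Every 75 nt window of each member's annotated transcripts was looked up in the transcripts of all other genes. The share of windows also found in another gene was 81.7% for Zfp987, 78.7% for Zfp993, 75.9% for Zfp991, 74.5% for Zfp600 and 56.1% for Zfp980. It was lower for Zfp992 at 34.5%, Zfp979 at 23.6%, Zfp981 at 23.3%, Zfp990 at 11.6% and Zfp982 at 4.93%. Zfp992 owed its own windows mostly to the part of its transcript after the coding sequence, where 2360 of 2676 windows were found in no other gene, against 448 of 1645 in the coding part. All 1030 coding windows of Zfp982 were found in no other gene. No exon of a member overlapped an exon of another annotated gene, although 7 of the members overlap other genes elsewhere along their length.

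**Figure D1:**
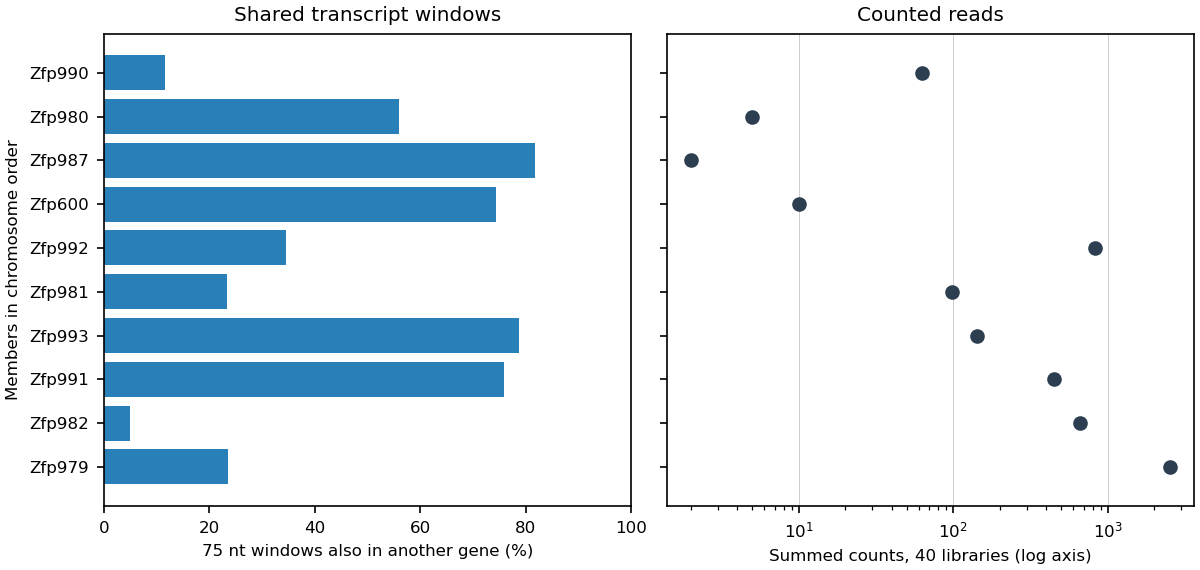
Left, the percentage of 75 nt transcript windows of each member that also occur in another gene (bars from 0 to 100), and right, its counted reads summed over the 40 libraries on a log axis, with members in chromosome order. Zfp987, with 81.7% of windows shared, had 2 reads in all, while Zfp979 had 2526 and Zfp991, with 75.9% shared, had 447.

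All members were expressed at low levels in these punches. Of the 10, 4 passed the filter on low counts and entered the tests: Zfp979 with 2526 reads over all libraries, Zfp992 with 833, Zfp982 with 665 and Zfp991 with 447. The other 6 did not pass. Zfp993 (143 reads), Zfp981 (99 reads) and Zfp990 (63 reads) had reads in 29, 25 and 21 of the 40 libraries. Zfp600 had 10 reads in all, Zfp980 had 5 and Zfp987 had 2, so no comparison between groups is made for these 3. Total counts ran from 16913124 to 28179071 per library.

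Per kilobase of exon, which allows genes to be compared, the order of levels depended on the strain. Zfp979 averaged 0.612 ± 0.378 CPM per kb in DBA and 0.714 ± 0.321 in C57 (SD, n = 20 each), with CPM meaning counts scaled to a common library size by TMM factors. Zfp982 averaged 0.0927 ± 0.0849 CPM per kb in DBA and 0.872 ± 0.405 in C57. Zfp992 averaged 0.297 ± 0.122 CPM per kb in DBA and 0.0925 ± 0.0747 in C57. By their means Zfp979 was thus followed by Zfp992 in DBA, whereas in C57 Zfp982 stood beside Zfp979 and their spreads overlapped.

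Between strains, Zfp982 was lower in DBA in both sexes, and Zfp992 was higher in DBA females, with its male values given as a description. Zfp992 had 17, 36, 20, 39 and 20 reads in DBA RCF females and 44, 38, 47, 31 and 51 in DBA control females. In C57 females it had 19, 21, 4, 8 and 12 reads after RCF and 12, 6, 6, 1 and 4 in controls. The ranges touched, with the lowest DBA female at 0.684 CPM and the highest C57 female at 0.878 CPM. The log2 ratio of DBA over C57 (the log2 fold change) in females, which share no library with the comparison that led to the list, was 1.88 (SE 0.29, adjusted p = 4.34e-06, edgeR quasi-likelihood test with Benjamini-Hochberg adjustment over 18441 genes, of which 19.1% passed the 0.05 threshold).

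In males Zfp992 had 19, 29, 30, 31 and 14 reads in DBA RCF libraries and 43, 28, 61, 27 and 14 in DBA controls. C57 RCF males had 4, 2, 2, 1 and 2 reads, and C57 control males 14, 16, 15, 16 and 29. The C57 RCF males were the lowest group, and the DBA and C57 controls overlapped, at 0.593 to 2.62 CPM in DBA and 0.597 to 1.27 CPM in C57. The log2 ratio in males was 2.15 (SE 0.30), a description without a test, since it includes the C57 RCF males whose low values chose the list. Control males alone averaged 1.53 ± 0.735 CPM in DBA and 0.783 ± 0.272 CPM in C57 (SD, n = 5 each).

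Zfp982 (ENSMUSG00000078496.9, 147492417 to 147513486, plus strand) went the other way. It had 5, 4, 7, 0 and 5 reads in DBA RCF females and 1, 6, 0, 7 and 2 in DBA control females. C57 RCF females had 26, 54, 36, 30 and 40 reads, and C57 control females 21, 16, 41, 26 and 37. Every DBA female lay below every C57 female, which was true of 1.72% of all genes tested. The log2 ratio was -3.16 (SE 0.49, adjusted p = 5.81e-06, edgeR). Zfp982 passed the low-count filter through its C57 libraries, and fitted without that filter the female ratio was -3.17 (adjusted p = 1.51e-06, edgeR). In males Zfp982 had 5, 0, 2, 0 and 3 reads in DBA RCF libraries and 2, 2, 11, 0 and 3 in DBA controls. C57 RCF males had 43, 21, 11, 13 and 32 reads, and C57 control males 27, 18, 68, 31 and 9. The ratio in males was -3.26 (SE 0.51, adjusted p = 6.65e-06, edgeR, where 22.9% of genes passed), and the highest DBA male, at 0.472 CPM, lay above the lowest C57 male, at 0.393 CPM.

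Zfp991 and Zfp979 did not pass the strain test. Zfp991 had 0 to 20 reads (median 9) in DBA and 2 to 34 reads (median 12.5) in C57, with a log2 ratio over both sexes of -0.43 (SE 0.32, adjusted p = 0.324, edgeR). Zfp979 (ENSMUSG00000066000.12, 147611937 to 147642513, minus strand) had 25 to 184 reads (median 51) in DBA and 20 to 145 (median 61.5) in C57, with a log2 ratio of -0.26 (SE 0.19, adjusted p = 0.308, edgeR). Over both sexes the log2 ratio was 2.02 (SE 0.21) for Zfp992 and -3.21 (SE 0.35) for Zfp982, the value of Zfp992 again including the C57 RCF males. Of all genes tested, 34.2% passed the same test, so a strain call by itself does not set a member apart. For Zfp991, Zfp979 and Zfp982 the strain difference in females did not pass a test against that in males (adjusted p from 0.884 to 0.979, edgeR, where 0.038% of genes passed). For Zfp992 that difference, females minus males, was -0.27 (SE 0.40), a description, since the males include the C57 RCF group that chose the list.

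Among members below the filter, Zfp993 had 112 reads in the 20 DBA libraries and 31 in the 20 C57 libraries. Zfp981 had 76 reads in DBA and 23 in C57, and Zfp990 had 49 in DBA and 14 in C57. All 3 totals were higher in DBA. Fitted without the filter, Zfp993 gave a log2 ratio of 1.91 (SE 0.51) over both sexes. That is a description, since Zfp993 is a near copy of Zfp992 and the C57 RCF males that chose the list enter it. Zfp981 and Zfp990 passed over both sexes (adjusted p = 0.00821 and 0.00427, edgeR over 42664 genes), with those males included. By sex, Zfp993 passed in females at 2.82 (adjusted p = 0.00993, edgeR) and not in males at 0.996 (adjusted p = 0.496, edgeR). Zfp981 did not pass in females or in males alone (adjusted p = 0.140 and 0.0888, edgeR), nor did Zfp990 (adjusted p = 0.0501 and 0.138, edgeR). No fold is given for Zfp981 and Zfp990, since the C57 control females were at 0 for both. Without the filter 14% of all genes passed, against 5 of the 10 members. The 5 include Zfp992, whose value contains the C57 RCF males that chose the list, so the count is a description.

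**Figure D2:**
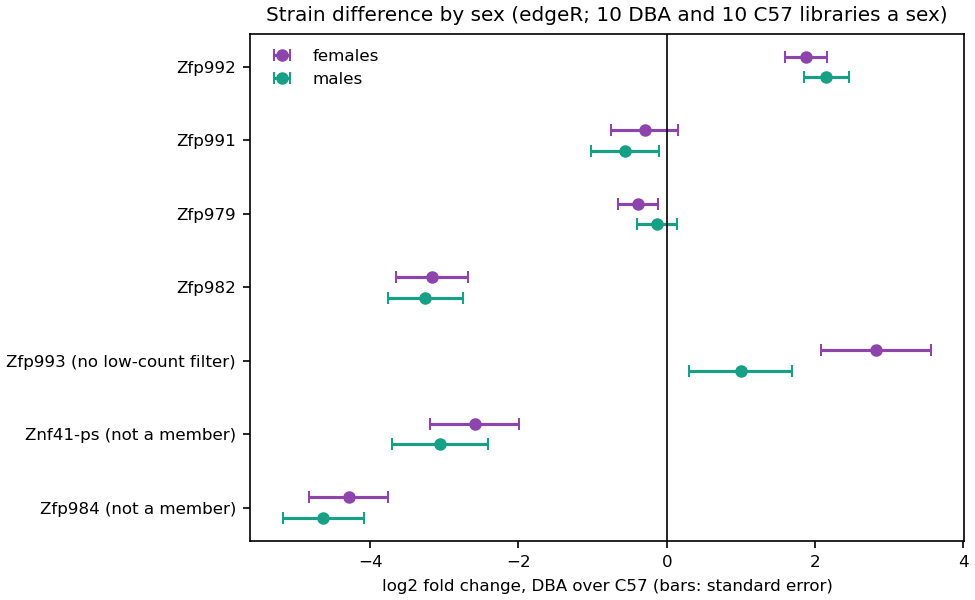
Log2 ratio, DBA over C57, with its standard error, in females and males, for the 4 members tested, Zfp993 from the fit without a low-count filter, and Znf41-ps and Zfp984, which are not members. Zfp992 and Zfp993 lie right of 0 in both sexes, and Zfp982, Znf41-ps and Zfp984 lie left of it by more than 2 log2 units.

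**Figure D3:**
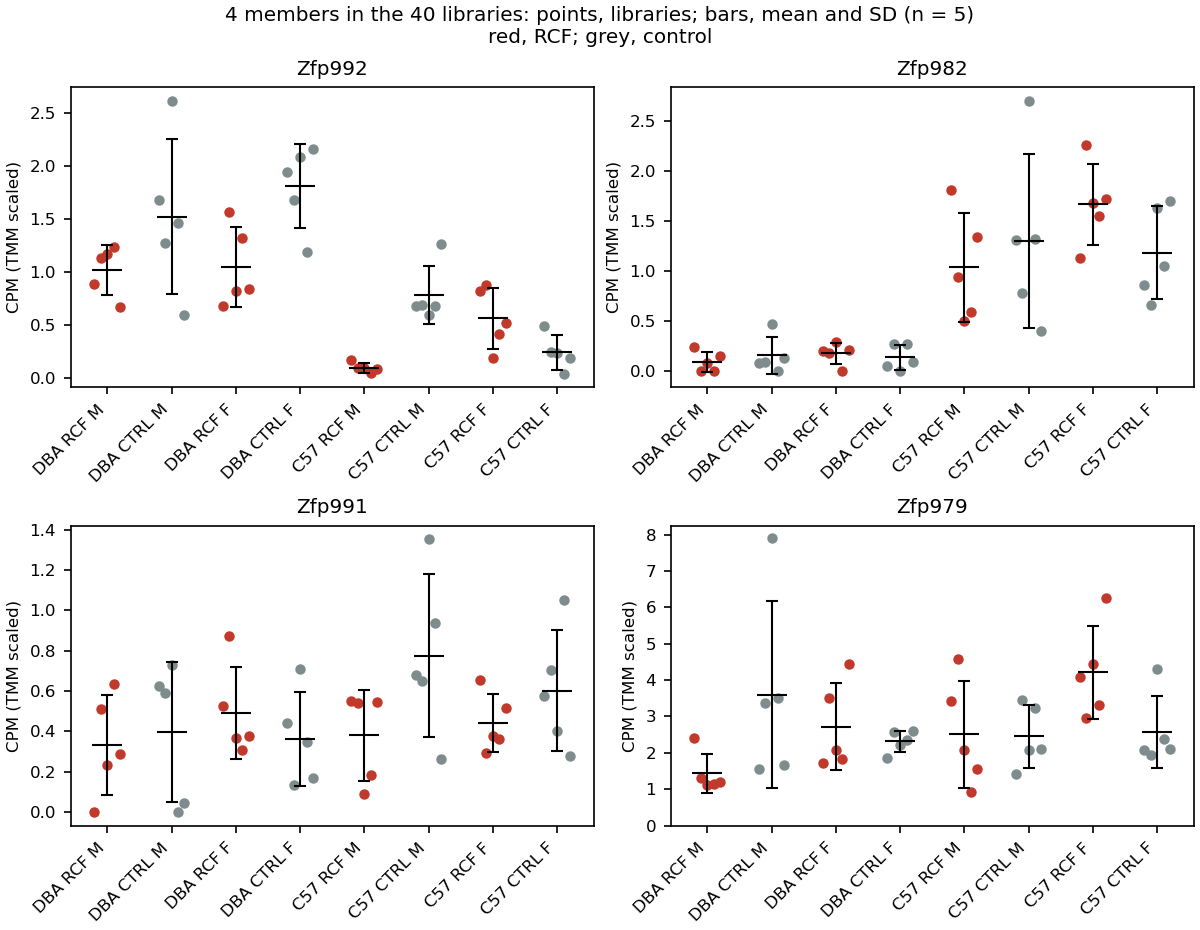
CPM of Zfp992, Zfp982, Zfp991 and Zfp979 in each of the 40 libraries (points; red, RCF; grey, control) with the mean and SD of each group of 5. Zfp992 is lowest in C57 RCF males, between 0.0455 and 0.169 CPM, and Zfp982 stays at or under 0.472 CPM in the DBA libraries.

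Znf41-ps, a near copy of Zfp992 that passed the low-count filter through its C57 libraries, was lower in DBA, whereas Zfp993, as close a copy, was higher in the fit without the filter. Znf41-ps had 0 to 10 reads (median 1) in DBA libraries and 0 to 20 (median 10) in C57 libraries. Its log2 ratio over both sexes was -2.83 (SE 0.44), against 2.02 for Zfp992, both descriptions, since they include the C57 RCF males. In females the ratio of Znf41-ps was -2.59 (SE 0.60, adjusted p = 0.00167, edgeR), against 1.88 for Zfp992. Summed over Zfp991, Zfp992, Zfp993 and Znf41-ps, a sum chosen after the values were seen, the level was 2.05 ± 0.743 CPM in DBA and 1.46 ± 0.407 in C57 (SD, n = 20 each), and the ranges overlapped. The sum of Zfp991, Zfp992 and Zfp993 alone was 1.99 ± 0.736 CPM in DBA and 1.04 ± 0.499 in C57. Over all 10 members it was 4.93 ± 2.06 CPM in DBA and 5.36 ± 1.72 in C57. Whether reads of 1 copy were assigned to another was not tested, and the reference genome is that of C57BL/6J.

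Within C57 males, the comparison that led to the list, Zfp992 had 0.0955 ± 0.0448 CPM after RCF and 0.783 ± 0.272 CPM in controls (SD, n = 5 each). Every RCF library lay below every control library, as in 0.412% of all genes tested. The log2 ratio was -2.96 (SE 0.48), and 0.0108% of genes passed the threshold in this comparison. The value is a description, as Zfp992 was chosen for it. Without the 4 libraries high in Slc17a7, left out after seeing the data, the ratio was -2.70. Control male replicates 1 and 5 of C57 are among those 4, and no C57 RCF male is. The 4 markers of cortical glutamate neurons had a median log2 ratio of -3.06 in this comparison, with none called.

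The values of its close copies there are descriptions too. Zfp991 had 13, 12, 2, 4 and 13 reads after RCF and 14, 15, 34, 22 and 6 in controls, with a log2 ratio of -1.02 (SE 0.64), and the groups overlapped. Zfp993 had 0, 0, 4, 0 and 2 reads after RCF and 4, 5, 3, 1 and 3 in controls. Znf41-ps had 20, 13, 14, 13 and 10 reads after RCF and 10, 9, 4, 9 and 0 in controls, with a log2 ratio of 1.1 (SE 0.70). In CPM the groups overlapped, with the lowest RCF library at 0.418 and the highest control at 0.485. The sum of the 4 copies was 1.14 ± 0.277 CPM after RCF and 1.98 ± 0.209 in controls, and it contains Zfp992, which was chosen for its low values after RCF. The mean of Znf41-ps was 0.613 ± 0.152 CPM after RCF and 0.283 ± 0.198 in controls. Zfp982 and Zfp979 had log2 ratios of -0.33 (SE 0.60) and 0.03 (SE 0.38), with groups that overlapped.

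**Figure D4:**
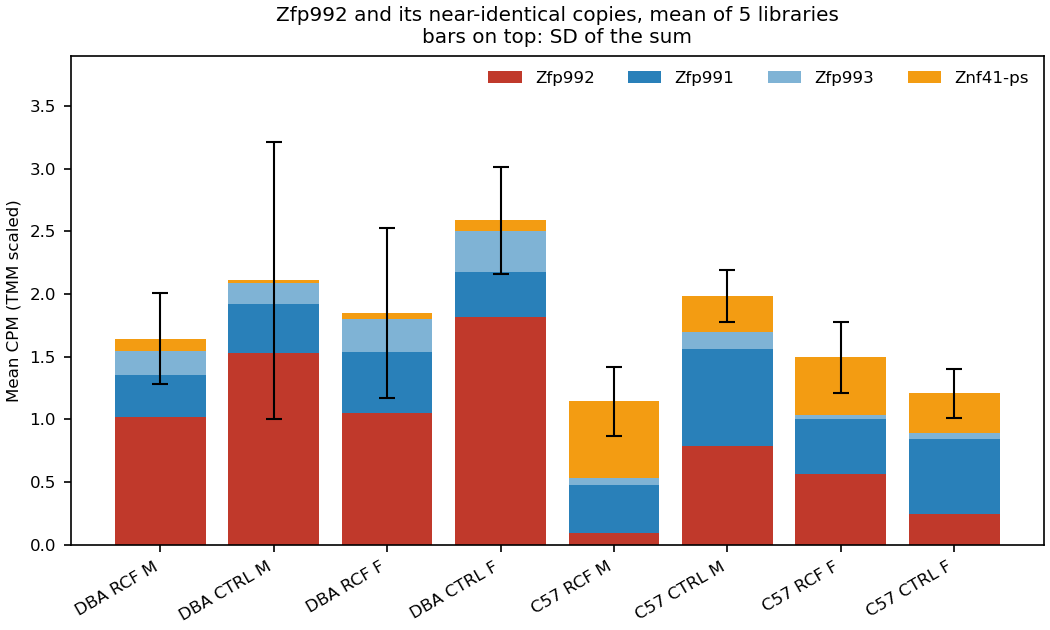
Mean CPM of Zfp992, Zfp991, Zfp993 and the pseudogene Znf41-ps stacked from 0 in each group of 5 libraries, with the SD of their sum. Zfp992 fills most of each DBA column, and in C57 RCF males the sum of 1.14 CPM is mostly Znf41-ps and Zfp991.

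In the other 3 comparisons of RCF with controls no member passed the threshold. In C57 females Zfp992 had 0.565 ± 0.289 CPM after RCF and 0.241 ± 0.163 in controls, with a log2 ratio of 1.22 (SE 0.43, unadjusted p = 0.00723, adjusted p = 0.248, edgeR). This is opposite in sign to C57 males. In DBA males it was -0.57 (SE 0.38, adjusted p = 0.806, edgeR), from 1.02 ± 0.234 CPM after RCF and 1.53 ± 0.735 in controls. In DBA females it was -0.79 (SE 0.37, unadjusted p = 0.0424, adjusted p = 0.388, edgeR), from 1.05 ± 0.380 CPM after RCF and 1.81 ± 0.394 in controls. The difference between the 2 RCF effects in females, DBA minus C57, was -2.01 (SE 0.57, unadjusted p = 0.00116, adjusted p = 0.158, edgeR). The share of genes past the threshold was 0.00542% in C57 females, 0.0163% in DBA males and 0.0163% in DBA females.

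The order of the 8 group means of Zfp992, low to high, was C57 RCF males, C57 control females, C57 RCF females, C57 control males, DBA RCF males, DBA RCF females, DBA control males and DBA control females. In each of the 7 neighbouring pairs of that order the libraries of both groups overlapped. The 4 DBA means, 1.02 to 1.81 CPM, all lay above the 4 C57 means, 0.0955 to 0.783 CPM.

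Zfp991 and Zfp982 stayed between -0.81 and 0.50 on the log2 scale in these 3 comparisons, with standard errors of 0.59 to 0.83. In DBA males Zfp979 had 51, 33, 29, 29 and 25 reads after RCF and 40, 74, 184, 65 and 39 in controls, with a log2 ratio of -1.33 (SE 0.39, unadjusted p = 0.00168, adjusted p = 0.510, edgeR). Without control replicate 3, which had the 184 reads, it was -0.81. That library also had the highest level of Th, the rate-limiting enzyme gene of dopamine synthesis, at 1644 CPM. Across the 40 libraries, deviations of Zfp979 from its group means followed those of Th with a Pearson r of 0.59. The r with Th was 0.32 for Zfp982, 0.18 for Zfp991 and 0.041 for Zfp992. With Slc17a7 the r was -0.35 for Zfp982, -0.21 for Zfp979, -0.054 for Zfp991 and -0.022 for Zfp992. Each is a description over libraries that share punch content. In bulk tissue, fewer cells of a type and less RNA per cell cannot be told apart. The part of punch content in the Zfp979 value was not tested. In C57 females Zfp979 had 94, 71, 95, 64 and 145 reads after RCF and 51, 47, 108, 59 and 46 in controls, with a log2 ratio of 0.71 (SE 0.38, adjusted p = 0.440, edgeR). Th was at 1259 CPM in the RCF library with 145 reads and at 1100 CPM in the control library with 108.

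**Figure D5:**
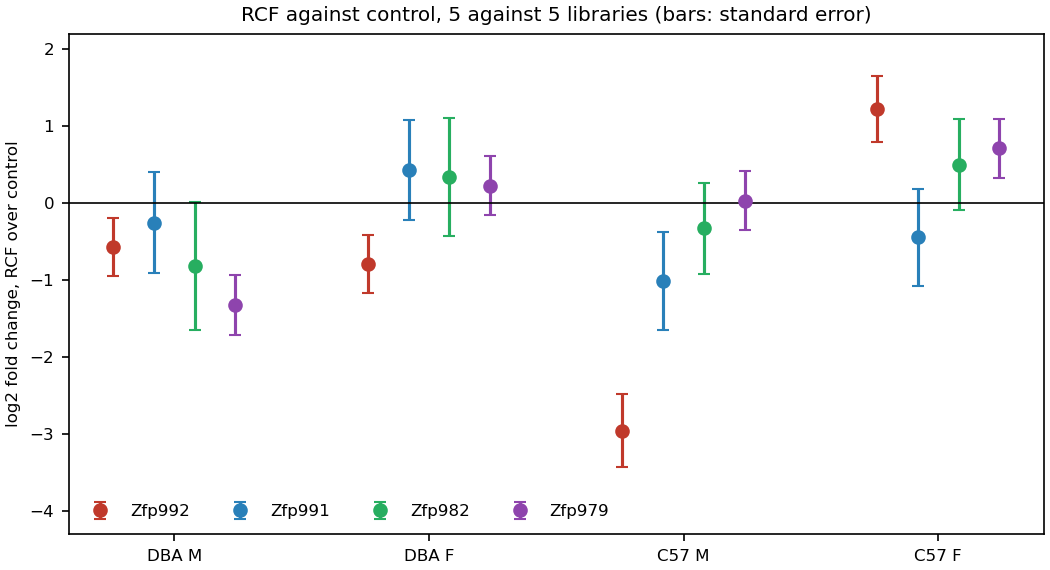
Log2 ratio, RCF over control, with its standard error, of the 4 tested members in DBA males, DBA females, C57 males and C57 females (5 against 5 libraries). Zfp992 is at -2.96 in C57 males and 1.22 in C57 females, and the C57 male values are descriptions because that comparison chose the list.

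Zfp991, Zfp979 and Zfp982 did not pass the test between the sexes. Their log2 ratios, females minus males, ran from 0.05 for Zfp991 to 0.32 for Zfp982 (adjusted p from 0.706 to 0.984, edgeR, where 0.146% of genes passed). Zfp992 was at 0.28 (SE 0.20), a description, since the males include the C57 RCF group that chose the list. Members varied little together within groups. Over deviations from group means in 40 libraries, Pearson r between pairs of the 4 ran from -0.18 for Zfp982 with Zfp992 to 0.34 for Zfp979 with Zfp982. Among the genes most like Zfp992 by the same measure were Ptprc, the pan-leukocyte surface phosphatase gene, at 0.53, Phip at 0.52, Sap30, a gene of a histone deacetylase complex, at 0.51, and Mars2 at 0.50. These are the highest in a search over the 18441 genes tested, and no r was tested, so no shared role is read from them. The highest r was larger for Zfp979 at 0.79, Zfp991 at 0.72 and Zfp982 at 0.65.

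Start regions of members are also near copies. RefSeq start regions of GRCm38.p6, running 250 bases before to 50 after a start, matched 7 members, and for 5 of them (Zfp980, Zfp987, Zfp600, Zfp982 and Zfp979) the start lay within 100 bases of the GENCODE start. Between these 5, identity ran from 88.4% to 98.3%. Zfp982 and Zfp979 are shown because they differ in strain effect while their start regions were 91.7% identical. The capitals mark ATTGGGCGG, a CCAAT box read on the other strand that overlaps a GC box, GGGCGG, by 2 bases.
Zfp982, chr4:147492167-147492466, plus strand: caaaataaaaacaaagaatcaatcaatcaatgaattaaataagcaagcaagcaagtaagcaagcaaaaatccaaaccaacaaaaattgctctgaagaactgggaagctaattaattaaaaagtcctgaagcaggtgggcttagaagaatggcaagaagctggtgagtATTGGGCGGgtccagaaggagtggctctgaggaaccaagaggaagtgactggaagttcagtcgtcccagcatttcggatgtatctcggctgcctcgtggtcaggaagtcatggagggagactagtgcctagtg
Zfp979, chr4:147642459-147642758, minus strand: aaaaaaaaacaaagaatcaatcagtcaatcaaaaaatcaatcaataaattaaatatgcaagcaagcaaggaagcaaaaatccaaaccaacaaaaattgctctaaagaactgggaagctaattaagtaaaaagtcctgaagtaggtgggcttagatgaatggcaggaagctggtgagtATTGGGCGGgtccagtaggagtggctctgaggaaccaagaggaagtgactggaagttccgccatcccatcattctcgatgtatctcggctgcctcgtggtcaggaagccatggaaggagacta
Both strands were searched. The joined motif, which was not planned beforehand, was in 4 of the 5 start regions. It was in 84 of the 32851 start regions in the table (0.256%), these 4 included. The 5 are near copies of each other, so the 4 are not separate finds and no enrichment is read from these shares. GGGCGG alone was in 35.7% of them and CCAAT alone in 37.4%. A match describes letters and shows no binding.

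Few other genes of the block could be tested. Of the 63 other genes inside the span, only Znf41-ps and Gm13161 passed the filter, and Gm13161 was also lower in DBA (log2 ratio -0.996, SE 0.34, adjusted p = 0.0199, edgeR), a call that was lost without the low-count filter. Below the filter, Gm13166 had 32 reads in DBA and 14 in C57, and Zfp978 had 11 reads in DBA and 3 in C57. Others went the other way, with Zfp988 at 5 reads in DBA and 17 in C57, Zfp986 at 1 and 5, and Zfp985 at 18 and 21. Zfp984 (ENSMUSG00000078495.10, chromosome 4, 147753974 to 147809788, minus strand), just beyond the last member and named after its values were seen, had 0 to 6 reads in DBA libraries and 25 to 72 in C57 libraries. Its log2 ratio over both sexes was -4.46 (SE 0.38). That is a description, since Zfp984 was picked for its values and passed the low-count filter through its C57 libraries.

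Genes through which KRAB zinc finger proteins act were compared between strains too. Of 25 co-repressor genes listed, 24 were tested, 8 were higher and 2 lower in DBA, with a median log2 ratio of 0.0528. That is 41.7% called, beside 34.2% of all genes tested. Trim28 was at 0.22 (SE 0.037, adjusted p = 1.17e-05, edgeR), and Setdb1 at 0.16 (SE 0.047, adjusted p = 0.00810, edgeR). Ehmt1, Chd4, Dnmt1, Ehmt2, Mbd1 and Suv39h1 were higher as well, by 0.096 to 0.23, although the calls of Ehmt2 and Suv39h1 were lost in some of the other settings. Hdac1, a histone deacetylase gene, was lower at -0.36, and Setdb2 at -0.41 (adjusted p = 2.55e-06 and 2.36e-04, edgeR). None of them passed in any comparison of RCF with controls. Of 7 KRAB zinc finger genes named from elsewhere in the genome, 6 were tested and Zfp932, Zfp568, Zfp445 and Zfp57 were higher in DBA, by 0.16 to 0.49, with the call of Zfp932 lost in some settings, which is 66.7% of only 6 genes. Of 402 Zfp genes outside the span, 368 were tested, 109 were higher and 41 lower in DBA, with a median of 0.072, which is 40.8% called beside the same 34.2%.

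The punches differed in content. Th ran from 0.725 to 1644 CPM over the 40 libraries. The gene for the dopamine transporter, Slc6a3, ran from 0.460 to 2959 CPM. The lowest values of these 2 genes were thus near 0. The sum of the 8 dopamine neuron markers ran from 88.4 to 7591 CPM in DBA and from 69.7 to 5856 CPM in C57. Slc17a7, a transporter gene of cortical glutamate neurons, ran from 2.92 to 1312 CPM. Between strains, 3 of 4 markers were lower in DBA for each of astrocytes, oligodendrocytes, microglia and endothelium, with summed astrocyte markers of 563 to 1144 CPM in DBA and 635 to 1481 CPM in C57. Of 8 dopamine neuron markers 1 was lower in DBA, with a median log2 ratio of -1.59. Of 4 markers of cortical glutamate neurons none was called, with a median of -0.46. Of 4 hypothalamus markers 2 were higher in DBA, with a median log2 ratio of 1.89, and of 4 hindbrain markers 2 were tested and both were lower, with a median of -2.09. The share called among all genes was 34.2%. Their part in the strain differences of the members was not tested.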

How the data were processed

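Per the labels' protocols, RNA from frozen punches was made into strand-keeping mRNA libraries (Tecan Universal Plus mRNA-Seq) and read as 75 nt single reads on an Illumina NextSeq. The submitters' processing notes list cutadapt 1.11, bcl2fastq 2.20, FastQC and the build GRCm38/mm10. How reads were aligned and counted, with which strand setting and annotation, and what was done with reads that match several copies is not given in the sources used here. Raw counts were what the authors deposited, as whole numbers for each gene.

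Symbols and coordinates came from GENCODE M21 (GRCm38) by versioned identifier for 54573 genes and without version for 657, and 241 did not match. Replicates of a group differed by more than sampling noise in all 80 pairs (chi-square per degree of freedom 5.51 to 141, genes with at least 20 summed counts). All 40 libraries entered 1 edgeR 4.0.16 model (robust quasi-likelihood F test, TMM, R 4.3.3) with a mean per group and 32 residual degrees of freedom. filterByExpr left 18441 genes, over which p-values were adjusted by Benjamini-Hochberg, with a threshold of 0.05. CPM was scaled by TMM factors (0.905 to 1.09), and likeness used log2 CPM with a prior count of 2. Windows of 75 nt were compared between GENCODE transcripts only, since no genome sequence was used here, so the planned count of windows in the genome was not made. DESeq2 1.42.0 was an alternative.

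The members and lists were chosen with earlier results of these data known. All members were to be named, with genes of the span and of the co-repressor list past the threshold, 7 KRAB zinc finger genes and the 5 genes most like Zfp992, of which 1 is not reported here. Replicate numbers did not pair libraries.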

Additional observations from a re-analysis of the deposited data

Results flagged for a closer look

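In 32 groups of 5 libraries examined over the 4 tested members, 4 held a library that stood far from its 4 fellows relative to the range of the group. Chance alone flags about 1 in 20 groups where values are spread normally. CPM of low counts need not be, and all 4 flagged libraries were the highest of their group. The 4 of 32 is therefore not read as an excess. Zfp979 was at 4.31 CPM in C57 control female replicate 3, with the next library at 2.39 CPM. Zfp979 was at 2.39 CPM in DBA RCF male replicate 1, with the next at 1.30 CPM. Zfp982 was at 0.472 CPM in DBA control male replicate 3, with the next at 0.127 CPM. Zfp992 was at 1.27 CPM in C57 control male replicate 5, with the next at 0.691 CPM, and that library is among the 4 high in Slc17a7. Th was at 1100 CPM in the C57 female and at 1644 CPM in DBA control male replicate 3, and at 14.9 CPM in DBA RCF male replicate 1.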

How the results depend on the processing

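The strain call of Zfp982 over both sexes kept its direction and its side of the threshold under RLE factors, DESeq2, no filter, the replicate block and each left-out library. Zfp992 kept its direction under these settings, a description, since its value over both sexes includes the C57 RCF males that chose the list. In females alone the adjusted p of Zfp992 stayed at or under 1.89e-05 (edgeR) over left-out libraries. The sum of near-identical members joined Zfp991 and Zfp993 alone and did not touch Zfp992 or Zfp982. Over left-out libraries the strain log2 fold change ran from 1.94 to 2.12 for Zfp992 (1.74 to 2.09 in females alone) and from -3.46 to -3.10 for Zfp982. With no low-count filter the number of members called between strains was 5 in place of 2, since all 10 members entered. Both counts include Zfp992 and are descriptions. In C57 males, where the choice of the list fixed the count and it is no test, the number called was 0 in place of 1 with the compared libraries alone, and 0 without the 4 libraries above 400 CPM of Slc17a7, an alternative chosen after seeing the data; Zfp992 was at -2.70 without them and from -3.26 to -2.72 over left-out libraries. Fits with the compared libraries alone could not differ for the strain mean and the sex comparison, which use all groups, and in C57 females Zfp992 did not pass the filter there. With the replicate block, Zfp992 was at 2.04 between strains. Same-numbered libraries of different groups had a median correlation of deviations of -0.00626, and 9 of 40 correlated best with their own number, so the numbers were not taken as pairs. Values not called that changed sign were Zfp991 between sexes, at -0.11 without the libraries high in Slc17a7 and from -0.048 to 0.14 over left-out libraries; Zfp982 in the sex difference of strain effects, from -0.14 to 0.58, in DBA males, from -1.5 to 0.16, and in DBA minus C57 females, from -0.46 to 0.27; Zfp991 in DBA males, from -0.62 to 0.071; Zfp979 in C57 males, from -0.31 to 0.24; Zfp982 in C57 males, from -0.63 to 0.13; and Zfp979 in DBA females, from -0.020 to 0.36, and between strains in males, from -0.39 to 0.040. Of genes beside the members, Ehmt2, Zfp932 and Gm13161 lost their strain call without the filter (adjusted p = 0.0668, 0.112 and 0.0548, edgeR), Ehmt2 also with the block, Ehmt2 and Zfp932 also without several single libraries, and Suv39h1 without DBA control male replicate 4 or DBA RCF female replicate 4. A join at 25% of shared windows in place of 50% joined 5 members in place of 2, and windows of 50 nt gave a median shared share of 57.1% in place of 45.3%. Depth limits all members: 6 of 10 had too few reads for the filter.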
